A study of Mus musculus with 6 samples.

Results

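A set of 9 genes that mark the early stages of the oligodendrocyte lineage was compared between WT and TG mice in hippocampal tissue. They are all the members of the set, taken by symbol from the 54532 rows of the gene table: Pdgfra and Cspg4, which mark oligodendrocyte precursor cells, and Gpr17, Neu4, Enpp6, Bmp4, Bcas1, Tmem163 and Fyn, which rise as these cells commit and become newly formed oligodendrocytes. All 9 were found, and all 9 were among the 20952 genes tested. RNA-seq was available for 3 WT and 3 TG mice. The WT mice had the wild-type genotype. In the TG mice the protein changes G82R and L85P were introduced together into exon 3 of Slc1a2 by CRISPR/Cas9 knock-in in C57BL/6N zygotes, with founders then crossed to C57BL/6. Slc1a2 encodes GLT-1, the main glutamate transporter of astrocytes. WT littermates were the controls of the study. The age of the mice, their zygosity and which of the males and females were sequenced are not given in the sources used here, and whole hippocampal tissue was used, so all cell types contributed.

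Oligodendrocyte precursor cells are cells that keep dividing throughout life and give rise to the myelinating cells of the brain. They carry the PDGF receptor alpha, through which PDGF-A keeps them proliferating, and the proteoglycan NG2. When they commit to differentiation they lose this receptor, pass through a short stage with the receptor GPR17, and become newly formed oligodendrocytes that express enzymes such as ENPP6 before the genes of compact myelin reach their full level. In the hippocampus these stages lie next to mature oligodendrocytes, neurons and astrocytes, and a bulk measurement adds all of them up.

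The libraries held between 16081281 and 18751057 reads on genes. FPKM are the reads of a gene scaled to its length and to the reads of the library. Between libraries they compare levels only roughly, because they have no common sum. The summed FPKM ranged from 271491 in WT2 to 295610 in WT3. The targeted gene Slc1a2 had an FPKM of 202, 199.5 and 177 in WT1, WT2 and WT3, against 222, 207 and 217 in TG1, TG2 and TG3, and FPKM cannot show the amino acid changes themselves. All TG values lay above all WT values, where 12.1% of all genes tested had groups apart in either direction. Slc1a2 had a log2 fold change of 0.16 and was not called (limma, adjusted p = 0.789). These values are RNA, while the paper reports that GLT-1 protein was almost lost from the TG hippocampus. Markers of the choroid plexus, a tissue beside the hippocampus, set 2 libraries apart. The summed FPKM of 17 such genes was 59.9 to 85.2 in the WT libraries and 68.2 in TG3, but 1229 in TG1 and 3882 in TG2, and 9 of the 17 passed an unadjusted p under 0.05, all with higher TG means, while 0 were called. The mural cell list also differed between libraries, with a summed FPKM of 76.5 to 110.5 in WT and 75.5 to 107.3 in TG mice, as did the fibroblast list, with 16.1 to 33.8 and 21.1 to 27.5. These other tissues can carry some of the same genes, and their part in the values below was not tested unless a value is given. Neuronal and astrocyte genes were abundant in every library, led by Slc17a7 (a vesicular glutamate transporter) at 237 to 322 FPKM and Aldoc (an astrocyte aldolase) at 249 to 315 FPKM, and 0 of 10 and 0 of 7 such genes were called or passed an unadjusted p under 0.05.

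None of the 9 genes differed between WT and TG mice after adjustment over all genes tested (limma on log2(FPKM + 0.1), adjusted p from 0.786 to 0.995). Of all genes tested, 0.00955% were called by this rule. At an unadjusted p under 0.05, 1 of the 9 passed, Gpr17, where 5.91% of all genes tested did. The WT and TG ranges overlapped in all 9 genes, while they were separate in 12.1% of all genes tested. The fold changes were positive in 3 genes and negative in 6, with a median of -0.010 on the log2 scale, where the median over all genes tested was -0.0020. Fewer cells of a stage and less RNA per cell cannot be told apart in such bulk samples.

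**Figure D1:**
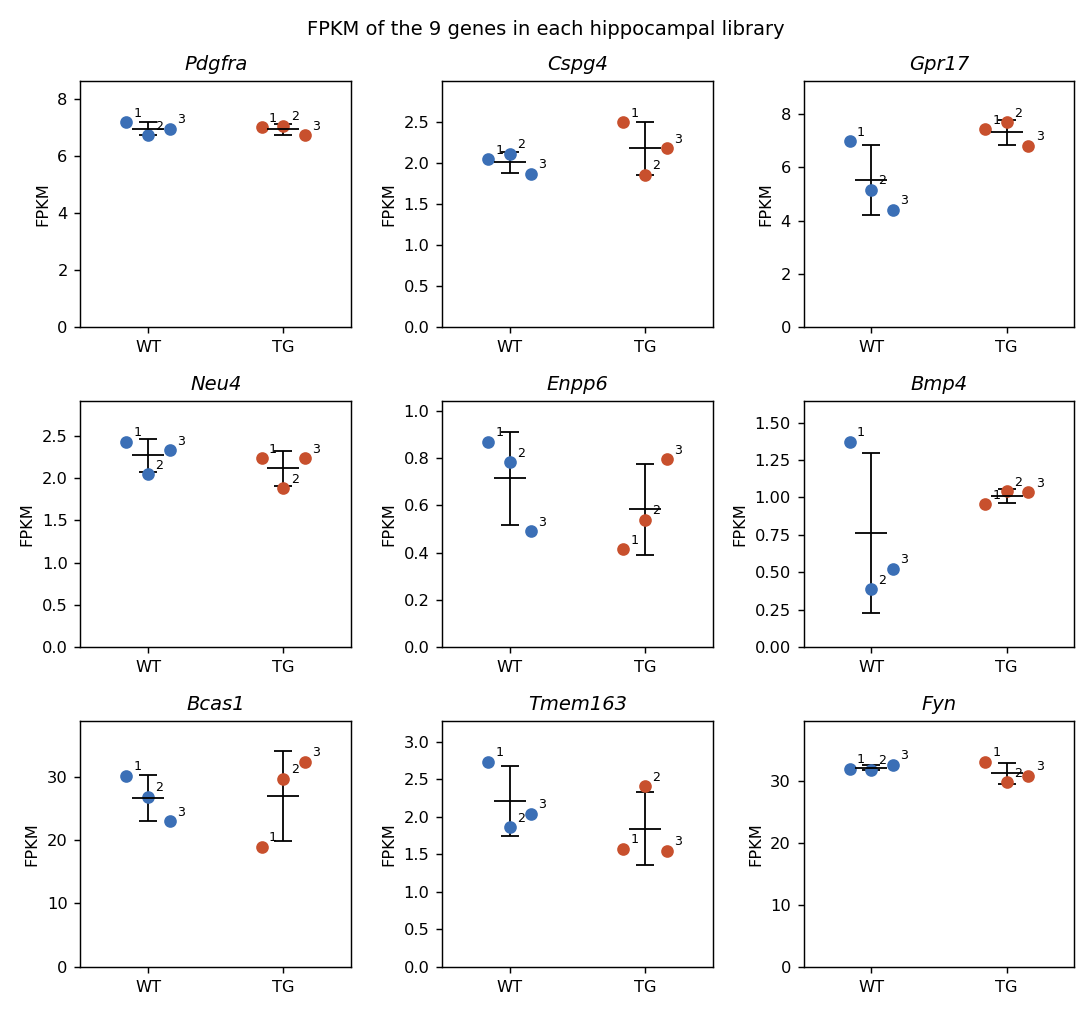
FPKM of the 9 genes in each library (points, numbered by replicate), with the mean and SD of 3 WT (blue) and 3 TG (red) mice; each panel has its own vertical axis from 0. The groups overlap in every panel, with tight values for Pdgfra and Fyn and wide values for Bmp4 in WT mice and for Bcas1 in TG mice.

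**Figure D2:**
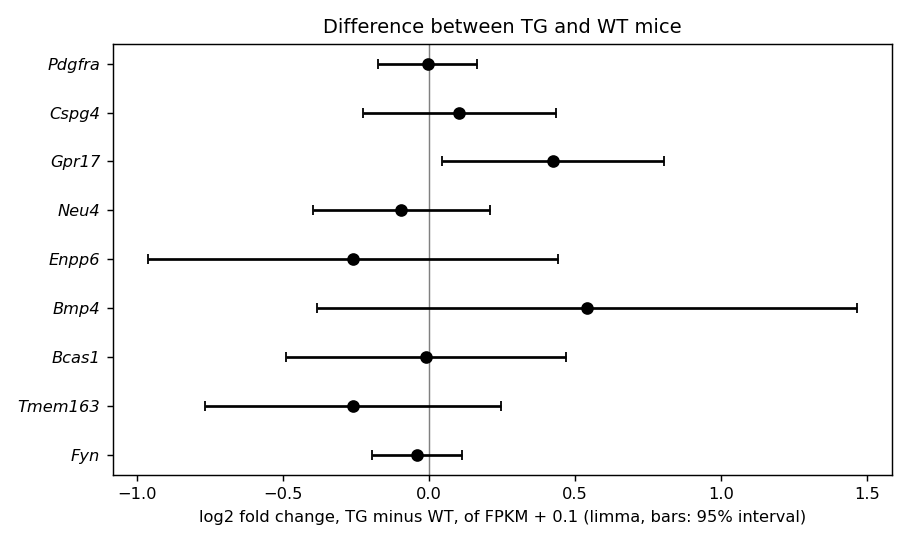
Log2 fold change of TG minus WT for each gene (points) with its 95% interval from limma (bars). Pdgfra and Fyn have the narrowest intervals, Bmp4 the widest, and only that of Gpr17 lies on one side of 0, before any adjustment for the number of genes.

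The genes lay at different levels. Fyn and Bcas1 were the highest, with mean FPKM over the 6 libraries of 31.6 and 26.8. Their ranges overlapped, although Fyn was the higher one in 5 of 6 libraries. Pdgfra and Gpr17 followed at 6.95 and 6.41, with overlapping ranges and Pdgfra higher in 3 of 6 libraries. Neu4, Cspg4 and Tmem163 lay together at 2.19, 2.10 and 2.03. Bmp4 at 0.885 and Enpp6 at 0.648 were the lowest. Bcas1 stood above Pdgfra, Gpr17 above Neu4 and Tmem163 above Bmp4 in 6 of 6 libraries without overlap, by 3.86, 2.92 and 2.29 times.

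The 250 bases upstream of the RefSeq start site are shown for the least variable of these genes across libraries, Pdgfra, and for the 2 most variable ones, Enpp6 and Bmp4, whose highest library lay 2.10 and 3.56 times above the lowest. Sequences are from RefSeq on GRCm38.p6, read 5′ to 3′ on the strand of the gene. Pdgfra lies on the plus strand (chr5:75152001-75152250), Enpp6 on the plus strand (chr8:46986637-46986886) and Bmp4 on the minus strand (chr14:46390670-46390919). Capitals mark matches, on either strand, to 6 short motifs: the E-box CAGCTG, a variant E-box CAGATG, the Sox-type motif ACAAAG, its variant ACAATG, the GC box GGGCGG and the TATA motif TATAAA.
Pdgfra: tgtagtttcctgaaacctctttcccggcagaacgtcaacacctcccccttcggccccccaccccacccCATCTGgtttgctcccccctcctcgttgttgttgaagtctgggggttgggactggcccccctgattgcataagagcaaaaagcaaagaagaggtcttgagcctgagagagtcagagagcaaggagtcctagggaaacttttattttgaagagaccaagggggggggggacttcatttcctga
Enpp6: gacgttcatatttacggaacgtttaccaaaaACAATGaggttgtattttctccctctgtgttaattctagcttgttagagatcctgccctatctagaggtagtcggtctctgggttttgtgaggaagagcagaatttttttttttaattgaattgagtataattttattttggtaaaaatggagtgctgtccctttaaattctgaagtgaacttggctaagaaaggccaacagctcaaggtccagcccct
Bmp4: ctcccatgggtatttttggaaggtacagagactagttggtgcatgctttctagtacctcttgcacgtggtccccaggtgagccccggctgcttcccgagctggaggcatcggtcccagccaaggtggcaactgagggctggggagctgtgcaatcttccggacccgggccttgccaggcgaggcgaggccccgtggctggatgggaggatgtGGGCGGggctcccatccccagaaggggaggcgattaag
Pdgfra held 1 match to CAGATG, at position -182 from the start site, and 14.4% of all 32851 RefSeq windows of this length hold that motif. Enpp6 held 1 match to ACAATG, at position -219, a motif of 10.7% of all windows. Bmp4 held 1 match to GGGCGG, at position -38, a motif of 32.7% of all windows. The motif CAGCTG (in 13% of all windows), the motif ACAAAG (in 16.5%) and the motif TATAAA (in 12.4%) had no match in these 3 windows, and none of the matches overlapped another. The GC content was 54.4% for Pdgfra, 38.4% for Enpp6 and 63.2% for Bmp4, against a median of 52.4% over all windows. A match describes letters only.

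Pdgfra (ENSMUSG00000029231, chromosome 5 from 75152292 to 75198215, plus strand) encodes the receptor by which precursor cells respond to PDGF-A. Its FPKM was 7.20, 6.74 and 6.96 across the WT mice, while the TG mice had 7.01, 7.07 and 6.73, resting on 1091 to 1334 reads per library. The highest library was only 1.07 times the lowest, and the SD of the log2 values within groups was at percentile 1.60 of all genes tested. TG minus WT was -0.0052 on the log2 scale (95% interval -0.18 to 0.16, limma, adjusted p = 0.991), an interval that corresponds to between 0.886 and 1.12 times the WT level. Fibroblasts express Pdgfra too, and the median of the fibroblast genes was 0.67, -0.22 and -0.40 (WT1 to WT3) compared with 0.39, -0.10 and 0.56 (TG1 to TG3) on the log2 scale, each gene being centred on its WT mean, a wider spread than that of Pdgfra. Of the 8 fibroblast genes, 0 were called by limma, and 0 passed an unadjusted p under 0.05 as well. Exons of Pdgfra overlap those of Gm42803, on the opposite strand and at no more than 0.247 FPKM, and 4.93% of its 50-base stretches are shared with other genes.

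Cspg4 (ENSMUSG00000032911, chromosome 9 from 56865033 to 56899870, plus strand) encodes NG2, a surface proteoglycan of precursor cells and of pericytes. It had an FPKM of 2.05, 2.12 and 1.87 in WT1, WT2 and WT3, against 2.50, 1.86 and 2.18 in TG1, TG2 and TG3. TG1 held the highest value and TG2 the lowest of all 6, so the TG libraries spanned the WT range. The log2 fold change was 0.10 (95% interval -0.23 to 0.43, adjusted p = 0.860), and 0.0035 without TG1. Mural cell genes, which mark pericytes and smooth muscle, gave median levels of 0.32, -0.10 and -0.17 across the WT mice, while the TG mice had 0.13, -0.05 and 0.12. None of these 12 genes was called, and 1 of them, Tagln (named after its values were seen), was at 0 in WT2.

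Gpr17 (ENSMUSG00000052229, chromosome 18 from 31942997 to 31949636, minus strand) encodes a G protein-coupled receptor that is present for a short time in committed precursor cells. Its FPKM was 6.97, 5.15 and 4.41 (WT1 to WT3) compared with 7.42, 7.69 and 6.80 (TG1 to TG3), on 429 to 716 reads per library. Mean FPKM was 5.51 ± 1.31 in WT and 7.30 ± 0.456 in TG mice (SD, n = 3 each). WT2 and WT3 lay below all TG libraries, while WT1 lay inside the TG range, above TG3. This gave a log2 fold change of 0.42 (standard error 0.162, 95% interval 0.04 to 0.80), a ratio of 1.34 with bounds of 1.03 and 1.75. It ranked 771 among the 20952 genes by p, and its adjusted p was 0.786. An exact two-sided permutation test of this gene alone gave p = 0.2, where 0.1 is the smallest p that 3 against 3 libraries allow. Without WT1 the log2 fold change was 0.60 (adjusted p = 0.573), and without WT3 it was 0.28 (adjusted p = 0.984). It was positive under all 16 alternatives tried, but under 7 of them, among them leaving out any single library other than WT1, Gpr17 no longer passed an unadjusted p under 0.05. Without TG1 and TG2, the libraries with choroid plexus genes, TG3 alone gave 0.32. Exons of Gpr17 overlap those of Lims2 on the opposite strand, and 1.87% of the 50-base stretches of Gpr17 occur in another gene. Lims2, itself a gene of newly formed oligodendrocytes, had an FPKM of 3.67, 3.49 and 2.93 in WT1, WT2 and WT3, against 3.11, 3.34 and 3.57 in TG1, TG2 and TG3, and strand was not stated for the counting.

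Bmp4 (ENSMUSG00000021835, chromosome 14 from 46383520 to 46390669, minus strand) encodes a secreted ligand that newly formed cells express and that holds back oligodendrocyte differentiation. It had an FPKM of 1.37, 0.386 and 0.523 across the WT mice, while the TG mice had 0.956, 1.04 and 1.03. The TG libraries lay close together and between the WT libraries, of which WT1 was the highest and WT2 the lowest of all 6. Reads were few, from 14 in WT2 to 57 in WT1. Counting error alone gave 0.386 an exact Poisson 95% interval of 0.211 to 0.647 and 1.37 one of 1.04 to 1.78. Bmp4 had a log2 fold change of 0.54, with the widest interval of the 9 genes, from -0.39 to 1.47 (adjusted p = 0.789). It was 1.01 without WT1 and 0.21 without WT2. The fibroblast genes were also high in WT1 and low in WT2 and WT3, as given above for Pdgfra; their part in the Bmp4 values was not tested. Gm15217, on the opposite strand, overlaps its exons and had at most 0.144 FPKM.

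Enpp6 (ENSMUSG00000038173, chromosome 8 from 46986887 to 47096762, plus strand) encodes a phosphodiesterase that is a marker of oligodendrocytes that have just formed. Its FPKM was 0.869, 0.782 and 0.491 (WT1 to WT3) compared with 0.414, 0.539 and 0.794 (TG1 to TG3), on 42 to 103 reads per library. TG1 was the lowest and WT1 the highest, but TG3 lay among the higher WT libraries and WT3 among the lower TG libraries. TG minus WT was -0.26 on the log2 scale (95% interval -0.96 to 0.44, adjusted p = 0.834), which spans levels in TG mice from 0.513 to 1.36 times those of WT mice. It was -0.48 without WT3 and also without TG3, -0.12 without WT1, -0.075 without TG1 and 0.17 in TG3 alone.

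Bcas1 (ENSMUSG00000013523, chromosome 2 from 170346991 to 170427845, minus strand) marks newly formed and early myelinating oligodendrocytes and stays on in many myelinating cells. It had an FPKM of 30.1, 26.8 and 22.9 in WT1, WT2 and WT3, against 18.9, 29.7 and 32.3 in TG1, TG2 and TG3. The TG libraries held both the lowest and the highest value, with means of 26.6 ± 3.59 and 27.0 ± 7.11 (SD, n = 3 each). Bcas1 had a log2 fold change of -0.010 (95% interval -0.49 to 0.47, adjusted p = 0.995), and its sign turned under 5 of 16 alternatives, among them the one without TG1 (0.23). Antisense genes overlap it, of which Bcas1os2 had an FPKM of 0.0921 to 0.523, and 8.98% of its 50-base stretches are shared with other genes.

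Neu4 (ENSMUSG00000034000, chromosome 1 from 94020451 to 94028334, plus strand) encodes a sialidase that removes sialic acids from glycoproteins and glycolipids. Its FPKM was 2.43, 2.04 and 2.33 across the WT mice, while the TG mice had 2.24, 1.88 and 2.23, and TG2 was the only library below WT2. The log2 fold change was -0.10 (95% interval -0.40 to 0.21, adjusted p = 0.858). Tmem163 (ENSMUSG00000026347, chromosome 1 from 127486546 to 127679548, minus strand) encodes a membrane protein that transports zinc and is also expressed in neurons. It had an FPKM of 2.73, 1.86 and 2.04 (WT1 to WT3) compared with 1.58, 2.40 and 1.55 (TG1 to TG3). TG1 and TG3 were the lowest of all 6, whereas TG2 was second to WT1. Its log2 fold change was -0.26 (95% interval -0.77 to 0.25, adjusted p = 0.789), and it was -0.10 without WT1 and -0.46 without TG2. Exons of Mgat5, on the opposite strand and at 7.03 to 8.42 FPKM, overlap those of Tmem163, with 3.30% of the 50-base stretches of Tmem163 shared.

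Fyn (ENSMUSG00000019843, chromosome 10 from 39368855 to 39565381, plus strand) encodes a Src-family tyrosine kinase that promotes oligodendrocyte morphological differentiation and is abundant in neurons as well. Its FPKM was 31.9, 31.7 and 32.6 in WT1, WT2 and WT3, against 33.1, 29.7 and 30.8 in TG1, TG2 and TG3. The values were nearly level, at percentile 4.08 of all genes tested for the SD within groups. For Fyn the log2 fold change was -0.043 (95% interval -0.20 to 0.11, adjusted p = 0.877), or 0.873 to 1.08 times the WT level. Over 10 neuronal genes the median difference was 0.01 (log2), and the share of the Fyn signal that came from neurons was not tested.

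The 9 genes did not move as a block across the 6 libraries. On the log2 scale and centred on the WT mean, the 9 genes had a median of 0.19, -0.05 and -0.10 across the WT mice, while the TG mice had 0.01, 0.02 and 0.11, so WT1 was the highest library and the TG libraries lay between the WT ones. Gpr17 and Bmp4 shared low values in WT2 and WT3. Bcas1 and Enpp6 shared their low points in TG1 and WT3, and Pdgfra and Fyn stayed almost flat. The mean of 20 mature oligodendrocyte genes, such as Mbp, which encodes a main protein of compact myelin, and Opalin, had its highest level in WT1 (0.28 above the mean of the 6 libraries on the log2 scale) and its lowest in TG1 (-0.45).

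Because Bcas1 and Enpp6 are active close to myelination, each of the 9 genes was set against this mature mean over the 6 libraries, a comparison chosen after the values were seen. For Enpp6 the relation had a Pearson r of 0.83 (n = 6, exact permutation p = 0.00833, adjusted p = 0.075 over 9 relations) and a Spearman rho of 0.83 (exact permutation p = 0.0583). It did not pass the adjustment, and r was 0.61 without TG1 and WT1, the libraries farthest from the median. For Bcas1 r was 0.79 (n = 6, exact permutation p = 0.0694) and rho 0.60 (exact permutation p = 0.242), and r was -0.016 without these 2 libraries, so the pooled relation rested on them. Tmem163 had an r of 0.65 (n = 6, exact permutation p = 0.157) and a rho of 0.60, and Cspg4 an r of -0.63 (n = 6, exact permutation p = 0.193) and a rho of -0.37. The other 5 genes had r between -0.38 and 0.06. These r values take in the difference between WT and TG mice in the mature mean. With both measures centred on their group means, r was 0.82 for Enpp6 (n = 6, exact permutation within groups p = 0.167), 0.99 for Bcas1 (exact permutation p = 0.0556) and -0.90 for Fyn (exact permutation p = 0.0833), and between -0.55 and 0.53 for the other 6 genes. The smallest p that 36 permutations within groups allow is 0.0278, and the lowest adjusted p over the 9 relations was 0.375. In this comparison, added after the pooled values were seen, TG1 was again the library farthest from its group in the mature mean.

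**Figure D3:**
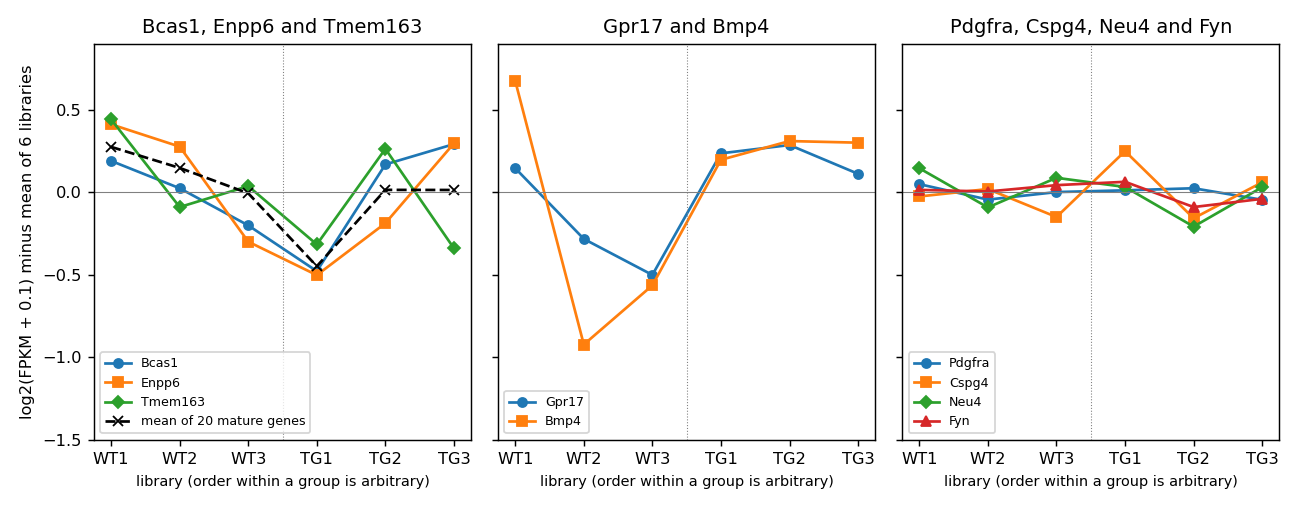
Log2(FPKM + 0.1) minus its mean over the 6 libraries, for the 9 genes in 3 panels and for the mean of 20 mature oligodendrocyte genes (dashed, left). Lines only join the values of a gene, and the dotted line parts WT from TG libraries; Bcas1 and Enpp6 are low in TG1 with the mature genes, Gpr17 and Bmp4 are low in WT2 and WT3, and the genes on the right vary little.

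Levels within the lineage were then compared as ratios, a comparison chosen after the values were seen. The first reference was Pdgfra, a precursor gene of the set. Relative to Pdgfra, the log2 level of Gpr17 was -0.05, -0.38 and -0.65 (WT1 to WT3) compared with 0.08, 0.12 and 0.01 (TG1 to TG3), so that all TG libraries lay above all WT libraries, by 0.43 on average. This was the 1 of 8 ratios to Pdgfra in which the groups did not overlap, and 10.9% of all genes tested behaved in this way. The exact permutation p of 0.1 is the smallest possible here, and the adjusted p over the 8 ratios was 0.800. The gap was narrow, from -0.05 in WT1 to 0.01 in TG3. The separation did not extend to Cspg4, the other precursor gene of the set. WT1 had an FPKM of 6.97 for Gpr17 and 2.05 for Cspg4, against 7.42 and 2.50 in TG1. Gpr17 relative to Cspg4 was therefore higher in WT1 than in TG1. Relative to the mean of the mature genes, Gpr17 (-1.53, -1.83 and -1.89 in WT1, WT2 and WT3, against -0.71, -1.13 and -1.30 in TG1, TG2 and TG3) and Bcas1 (0.57, 0.53 and 0.46, and 0.63, 0.81 and 0.93) did not overlap. TG minus WT was positive for 9 of 9 genes on this scale, from 0.018 to 0.82. Without this scaling, 3 of the 9 fold changes were positive and 6 negative. The lower average of the mature mean in TG mice raises every gene by the same amount on this scale. The count of 9 therefore does not describe these genes alone. The mature mean itself, minus its mean over the 6 libraries, was 0.28, 0.15 and -0.0056 (WT1 to WT3) compared with -0.45, 0.015 and 0.014 (TG1 to TG3). Bcas1 itself had a log2 fold change of -0.010. These are 2 of 9 ratios, and 22.2% of all genes tested did not overlap on this scale. The exact permutation p was again 0.1 for both, with an adjusted p of 0.450 over the 9 ratios. Pdgfra relative to the mature mean was -1.48, -1.45 and -1.25 across the WT mice, while the TG mice had -0.79, -1.24 and -1.31, with overlap.

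**Figure D4:**
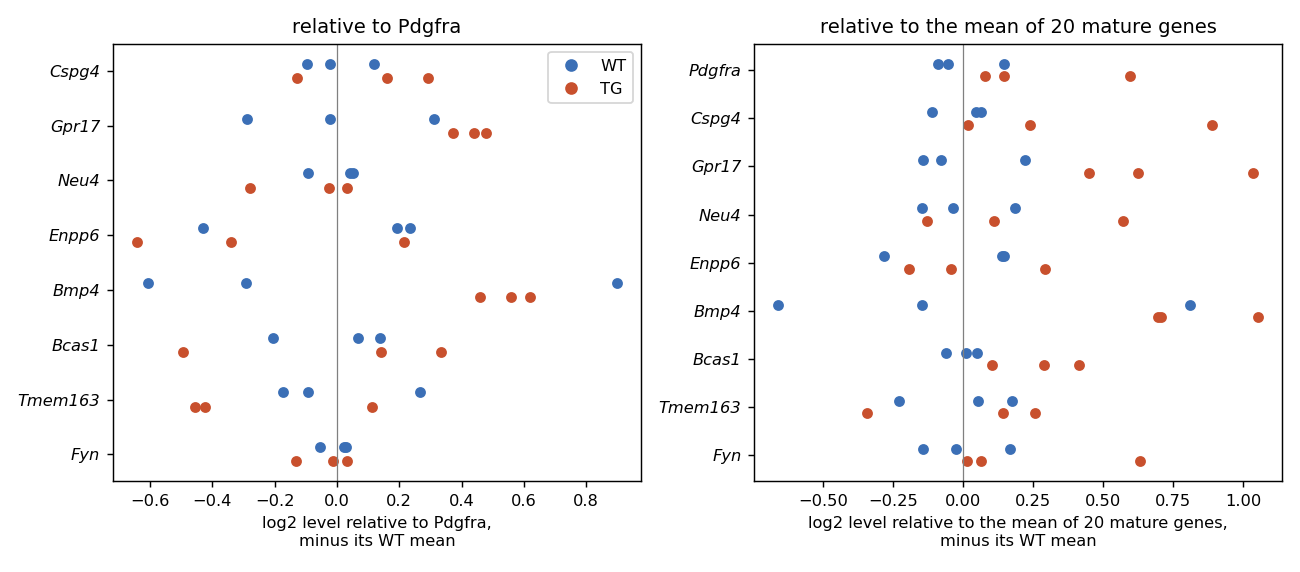
Log2 level of each gene relative to Pdgfra (left) and to the mean of 20 mature oligodendrocyte genes (right), minus its WT mean, with WT libraries in blue and TG libraries in red. On the left the groups lie apart for Gpr17, and on the right for Gpr17 and Bcas1.

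Further genes of the lineage were read from the same fit. Of 14 further precursor genes, 0 were called by limma and 0 passed an unadjusted p under 0.05, and their median log2 fold change was -0.02. Cspg5, a brain proteoglycan and the most abundant of them, had an FPKM of 26.4, 22.3 and 27.7 (WT1 to WT3) compared with 24.9, 24.0 and 26.0 (TG1 to TG3), and Emid1, with the smallest p, had a log2 fold change of -0.38 (adjusted p = 0.789). Of 15 further genes of newly formed cells, 13 were tested, 10 had a positive and 3 a negative fold change, and 0 were called or passed an unadjusted p under 0.05. Their median was 0.09. Casr and Gp1bb were under the filter and at 0 in at least 1 library. Nfasc, which encodes an adhesion protein of the node of Ranvier, had an FPKM of 16.4, 18.8 and 11.9 in WT1, WT2 and WT3, against 17.7, 17.2 and 18.2 in TG1, TG2 and TG3. Rras2, a small GTPase, had a log2 fold change of -0.16 (95% interval -0.41 to 0.08, adjusted p = 0.789). The 4 transcription factors Olig1, Olig2, Sox10 and Nkx2-2, which are on throughout the lineage, had negative fold changes in 4 of 4, with a median of -0.17. None of the 4 was called, and 1 passed an unadjusted p under 0.05. This was Olig2, with an FPKM of 12.3, 11.7 and 11.0 across the WT mice, while the TG mice had 10.3, 10.5 and 10.2, without overlap (adjusted p = 0.786), and Olig1, the most abundant, had 51.7, 57.2 and 64.2 (WT1 to WT3) compared with 51.6, 51.6 and 51.8 (TG1 to TG3). The 20 mature genes had negative fold changes in 20 of 20, with a median of -0.30. None was called, 4 of 20 passed an unadjusted p under 0.05, where 5.91% of all genes tested did, and in 6 of 20 the groups did not overlap, where 12.1% of all genes tested did not. The list median, centred on the WT mean, was 0.15, 0.04 and -0.14 (WT1 to WT3) compared with -0.61, -0.18 and -0.10 (TG1 to TG3), so TG1 was far below the other libraries and TG3 lay inside the WT range. Opalin had a log2 fold change of -0.77 (adjusted p = 0.786), and Mbp one of -0.07 (adjusted p = 0.930).

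The ligands, receptors and relatives of the 9 genes follow. Among 5 genes of the PDGF pathway none was called, and Pdgfa, the ligand of PDGF receptor alpha, had an FPKM of 9.66, 10.5 and 12.8 in WT1, WT2 and WT3, against 11.2, 11.3 and 9.04 in TG1, TG2 and TG3. Pdgfd, a ligand of the other PDGF receptor, had a log2 fold change of 0.29 (95% interval -0.06 to 0.64, adjusted p = 0.789). Among 23 genes of BMP signalling, which holds ligands, receptors, SMAD proteins, target genes and antagonists, 0 were called, 17 fold changes were positive, 6 were negative and the median was 0.07. Bmp6, another ligand, was the only one at an unadjusted p under 0.05, with an FPKM of 4.70, 2.33 and 1.66 across the WT mice, while the TG mice had 6.19, 7.91 and 3.39, and its 2 highest values were in the libraries with choroid plexus genes. Id2, the highest of this list and a target of BMP signalling, was at an FPKM of 29.7, 28.9 and 35.6 (WT1 to WT3) compared with 26.1, 28.9 and 31.1 (TG1 to TG3). Of 10 kinases and regulators around Fyn, 8 were tested, 7 had positive fold changes and 0 were called. Csk, which had the smallest p of this list, is the kinase that inhibits Src-family members, and had an FPKM of 6.56, 5.14 and 5.73 in WT1, WT2 and WT3, against 7.36, 6.91 and 7.05 in TG1, TG2 and TG3 (adjusted p = 0.786). Src itself, the highest of this list, was at an FPKM of 36.4, 37.9 and 34.1 across the WT mice, while the TG mice had 42.2, 36.9 and 37.2. Among the other sialidases, Neu1 had an FPKM of 15.4, 15.7 and 15.6 (WT1 to WT3) compared with 14.3, 14.2 and 15.3 (TG1 to TG3), with an adjusted p of 0.789 by limma, and 0 of 3 were called. Its groups did not overlap, where 12.1% of all genes tested did not, but TG3 at 15.3 lay just under WT1 at 15.4. Enpp2, a relative of Enpp6 that is very abundant in choroid plexus, had an FPKM of 29.1, 24.9 and 22.2 in WT1, WT2 and WT3, against 124, 351 and 26.3 in TG1, TG2 and TG3, high in the same libraries as the choroid plexus genes. Enpp6 did not do so, being lowest in TG1 and at 0.539 in TG2.

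The genes whose profile over the 6 libraries was most like that of a member were found by the root mean square distance of centred log2 values, among up to 13325 genes whose mean FPKM reached 1. For Pdgfra they were Ctnnb1 (0.0133) and Pikfyve (0.0170), genes that were also nearly flat. For Gpr17 they were Timp3 (0.0553), with an FPKM of 8.67, 6.58 and 5.80 across the WT mice, while the TG mice had 10.5, 10.1 and 8.91, and Atp2a3 (0.0554). For Enpp6 they were Kcnk13 (0.103), with 2.69, 2.59 and 1.97 (WT1 to WT3) compared with 1.54, 2.03 and 2.49 (TG1 to TG3), and Gm26964 (0.127). These likenesses are descriptions over 6 libraries.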

How the data were processed

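Hippocampal RNA of 3 WT and 3 TG mice was sequenced on an Illumina HiSeq. The authors counted reads per gene with HTSeq and deposited FPKM, computed from gene length and reads, in 1 column per library. The submitters' processing notes name GRCm38 and mm10, and the aligner is not given in the sources used here. Of 54532 rows, 53499 had the position of GENCODE M21 (GRCm38). For extraction and library kits the labels (RNeasy, SMARTer) and the methods (Trizol, NEBNext) differ. Strand was not stated, so genes that overlap others are uncertain.

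In each library FPKM multiplied by gene length fell on whole multiples of the value of 1 read for 100% of values above 0 (tolerance 0.05 reads), which returned the reads per gene, and 3 reads on 1 kb correspond to an FPKM of 0.160 to 0.190. Reads lack molecular identifiers, so Poisson intervals cover counting error only. WT and TG libraries were compared with limma 3.58.1 in R 4.3.3 (lmFit, eBayes with trend, two-sided) on log2(FPKM + 0.1) for the 20952 genes whose mean FPKM reached 0.1, with Benjamini-Hochberg adjustment over all of them and a threshold of 0.05. This scale understates changes of low genes. A count model was not used because FPKM are not counts, and the recovered reads entered limma-voom as an alternative only. Single values were tested by exact two-sided permutation. On simulated data this fit recovered the sizes of known changes, missed many of the changed genes, and called more unchanged genes than its threshold allows, mostly genes of low level, so the counts of all genes called may be too high and a gene that was not called may still differ. The simulation gave every gene the same relative spread beyond counting error and had no library set apart like TG1 and TG2. It therefore cannot tell how large these errors are in the real data. Figures were drawn in Python 3.11.15.

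The members and gene lists were chosen with earlier results of these data known. The rule for genes named besides the 9 was the most abundant gene and the one with the smallest p of each list, Slc1a2, and for Pdgfra, Gpr17 and Enpp6 the 2 genes with the closest profile. Of the lists of other cell types only Slc17a7 and Aldoc are named by this rule, and Tagln, Casr and Gp1bb were named for their values of 0. Lims2, Mgat5, Bcas1os2, Gm42803 and Gm15217 were named because they overlap a member, and the ratios and the relations to the mature genes were chosen after the values were seen. Alternatives concerned the pseudocount, filter, scaling, variance trend, voom, replicate block and left-out libraries.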

Additional observations from a re-analysis of the deposited data

How the results depend on the processing

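For the 9 genes, 0 were called with limma under all alternatives, and 1 as reported (Gpr17) passed an unadjusted p under 0.05. This number was 2 without WT1 and 0 under 7 of 16 alternatives: no variance trend, each of WT2, WT3, TG1, TG2 and TG3 left out singly, and TG1 and TG2 together. Bmp4 and Enpp6 fall below the filter at a mean FPKM of at least 1, so 7 genes were tested there. The number of all genes called, 2 as reported (1238 at an unadjusted p under 0.05), was 0 with a pseudocount of 0.01 or 1, without a filter, with libraries rescaled to a common sum, with limma-voom (1253 at an unadjusted p under 0.05), with the replicate block, and without TG1 and TG2 together. It was 1 at a mean FPKM of at least 1, 9 without the variance trend, and between 0 and 6 when each library was left out, with 6 without TG1 and 0 without each of the other 5. The cause was not tested.

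The direction held under every alternative for Cspg4, Gpr17, Neu4, Bmp4, Tmem163 and Fyn. For Pdgfra the log2 fold change turned to 0.029 with libraries rescaled to a common sum and lay between -0.028 and 0.018 when each library was left out. For Bcas1 it turned to 0.025 with this rescaling, to 0.012 with quantile normalization and to 0.29 without TG1 and TG2 together, and lay between -0.16 and 0.23 when each library was left out. Enpp6 turned to 0.17 without TG1 and TG2 together, where 1 TG library is assumed to vary like the WT libraries. The replicate number as a block left the median of the 9 genes at -0.010 and called none of them. Same-numbered libraries had correlated deviations of 0.01, 0.04 and 0.00, and differently numbered ones of -0.03 to 0.02. Whether the numbers pair mice is not stated, and with 3 libraries in each group these values cannot decide it. Depth limits Bmp4 and Enpp6 most.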
